A study of Mus musculus with 12 samples.

Results

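The genes described here are 10 mouse genes of the major histocompatibility complex (MHC) pathway, measured by RNA sequencing in whole liver. They were chosen by name, as the Ensembl genes of the deposited count table whose GENCODE M21 symbol is one of 10, and they make up 10 of the 54232 genes in that table. Class I is represented by 3 genes (H2-K1, H2-D1 and B2m) and class II by 7 genes (H2-Aa, H2-Ab1, H2-Eb1, H2-DMa, H2-DMb1, Cd74 and Ciita). All 10 passed the filter on low counts and were tested. The libraries came from male C57BL6/J mice labelled as 8-week, fed for 8 weeks through an intragastric tube. The pair-fed (PF) group of 5 received an isocaloric high-fat liquid diet, and the alcohol-fed (AF) group of 7 received a high-fat liquid diet with ethanol raised to 27 g/kg/day and a weekly binge of 5 g/kg. Per the study's methods, a solid Western diet or chow came before the tube feeding, and solid Western diet stayed freely available during it as the source of the other calories, which the text states for the ethanol regimen. High-fat liquid feeding was shared by both groups, and a group on a standard diet was not analysed here. The age label equals the length of the feeding, so which of these it states is unclear.

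MHC class I molecules consist of a heavy chain, such as the products of H2-K1 and H2-D1, bound to the common light chain beta-2 microglobulin (B2m). Nearly all nucleated cells, hepatocytes included, carry them and use them to show peptides from their own proteins to CD8+ T cells. Class II molecules are pairs of an alpha and a beta chain that show peptides from ingested proteins to CD4+ T cells, and in liver they are known mainly from dendritic cells, B cells, macrophages and, at lower level, sinusoidal endothelium. The invariant chain Cd74 guides newly made class II molecules to endosomes, H2-DM (H2-DMa with H2-DMb1) exchanges the last piece of the invariant chain for a peptide, and Ciita is the coactivator that switches the class II genes on.

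Stretches of promoters of the 2 classes are shown for orientation. In class II promoters an X box, bound by the RFX complex, lies upstream of a Y box, bound by NF-Y. For 7 of the 10 genes, the 250 bases before the RefSeq start (assembly GRCm38.p6) were searched on both strands for GNAACT, the core of the X box, followed after 20 to 30 bases by the Y box GATTGG. This pair was found before H2-Aa, H2-Eb1 and H2-DMb1 among the members, and in 0.183% of all 32851 promoter windows, whereas GATTGG alone was found in 14.6%. The pair was not found in the 2 windows of H2-DMa, nor in those of H2-K1, H2-D1 and B2m. GATTGG alone was present before H2-D1 and B2m and in the second window of H2-DMa and of H2-K1. Only these exact letters were searched, so variants of the X box were not looked for, and a difference between the classes was not tested. H2-Ab1, Cd74 and Ciita were not searched. The stretches below lie at chr17:34287859-34287912 (minus strand) and chr17:34305768-34305820 (plus strand), with the X core and the Y box in capitals.
H2-Aa: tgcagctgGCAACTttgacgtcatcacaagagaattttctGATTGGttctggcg
H2-Eb1: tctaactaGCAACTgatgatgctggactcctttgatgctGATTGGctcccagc

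For class I, 3 other motifs were searched in the same way, namely GGGATTCCC as the core of an NF-kB site, GAAANNGAA as the core of an interferon response element and the shorter AGTGAAA, which reads TTTCACT on the other strand. GGGATTCCC was present before both H2-K1 and H2-D1 and in 0.301% of all windows. AGTGAAA was present before the same pair of genes and in 3.7% of windows, and GAAANNGAA was present before B2m and in 7.13% of windows. In the lines that follow, capitals mark the motifs, and in B2m they mark GAAANNGAA and the Y box. The H2-K1 stretch lies at chr17:34000423-34000465 (minus strand), the H2-D1 stretch at chr17:35262924-35262950 (plus strand, inside the first exon of a longer GENCODE transcript) and the B2m stretch at chr2:122147540-122147646 (plus strand). These matches are letters in a window and were not tested as sites of binding.
H2-K1: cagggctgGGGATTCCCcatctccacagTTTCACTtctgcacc
H2-D1: GGGATTCCCcatctcctcagTTTCACT
B2m: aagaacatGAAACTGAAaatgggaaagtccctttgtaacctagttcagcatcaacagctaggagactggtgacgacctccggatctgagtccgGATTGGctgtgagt

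Of the 10 genes, 7 lie in the MHC on chromosome 17. In GRCm38 these are H2-K1 (33996017 to 34000347, minus strand), H2-DMa (34119541 to 34139101, plus strand), H2-DMb1 (34153072 to 34160230, plus strand), H2-Ab1 (34257689 to 34269419, plus strand), H2-Aa (34282744 to 34287823, minus strand), H2-Eb1 (34305867 to 34316674, plus strand) and H2-D1 (35262730 to 35267499, plus strand). B2m lies on chromosome 2 (122147686 to 122153083, plus strand), Ciita on chromosome 16 (10480059 to 10528418, plus strand) and Cd74 on chromosome 18. The class I heavy chains resemble each other, and 12.8% of the 50-base words of H2-D1 transcripts and 9.63% of those of H2-K1 also occur in other genes, mostly H2-Q genes and each other. For H2-DMb1 this share was 22.7%, all of it with H2-DMb2, and the exons of H2-DMa and Ciita overlap Brd2 and Dexi on the opposite strand. Since the strand setting of the counting is not given in the sources used here, counts of these genes carry that uncertainty.

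PF libraries held 24129900 to 28594027 counts on genes, and AF libraries held 25099033 to 30578639. Levels are given as CPM, counts scaled to a common library size with TMM factors. These factors were 0.832 to 0.901 for PF libraries and 0.880 to 1.36 for AF libraries. The lowest AF factor, that of replicate 6, lay within the PF range. This scaling sets the median log2 fold change of all 14168 tested genes to 0.04, while plain library totals set it to 0.40. Because AF values move up by about that difference, a small negative log2 fold change can turn positive with library totals. For the members, directions below are given under both scalings where they differ. Cell markers, list medians and some further genes are given under TMM alone. The labels number the libraries as replicates without naming the animals. The count table's column names carry a further number that differs in every library, with no statement of what it marks, and p-values measure the spread between these libraries. In whole tissue, fewer cells of a type and less RNA per cell cannot be told apart.

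Per kilobase of exon, the light chain was by far the most abundant of the 10 transcripts. In RPKM (CPM per kilobase), B2m averaged 2376 ± 247 in PF and 2100 ± 372 in AF livers (SD, n = 5 and 7). H2-K1 came next at 314 ± 44.4 and 248 ± 52.0 RPKM, followed by H2-D1 at 161 ± 23.4 and 202 ± 25.4 RPKM. Class II messages were lower throughout, headed by Cd74 at 88.6 ± 40.5 RPKM in PF and 125 ± 39.99 RPKM in AF. The 3 antigen-presenting chains followed in the order H2-Eb1 (25.2 ± 17.4 and 36.0 ± 12.02 RPKM), H2-Aa (21.6 ± 12.9 and 28.5 ± 9.89 RPKM) and H2-Ab1 (15.2 ± 8.39 and 20.4 ± 6.85 RPKM), and their ranges over livers overlapped in both groups. H2-DMb1 (3.29 ± 1.07 and 6.29 ± 2.22 RPKM) and H2-DMa (1.54 ± 0.553 and 3.04 ± 1.06 RPKM) were lower still and overlapped each other. The regulator Ciita was lowest, at 0.353 ± 0.274 RPKM in PF and 0.545 ± 0.243 RPKM in AF. The order was the same in every one of the 12 livers, although neighbours such as H2-D1 and Cd74 overlapped in range between livers. H2-K1 and H2-D1 were apart in PF and overlapped in AF.

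The first question was whether class II messages were higher in AF than in PF livers. The classical class II chains had higher means in AF, but PF replicate 5 had levels as high as the highest AF livers, and none of the 3 genes passed the threshold of 0.05. H2-Aa, the alpha chain of I-A, was at 42.7, 62.1, 65.3, 72.2 and 167 CPM in PF replicates 1 to 5, and at 53.2 (lowest), 98.5 (median) and 162 (highest) CPM in AF. The groups overlapped, with no AF liver above PF replicate 5, while 6 of 7 AF livers were above the other 4 PF livers. Its log2 fold change was 0.40 (SE 0.33, 95% interval -0.31 to 1.11, edgeR adjusted p = 0.345).

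H2-Ab1, the beta chain that pairs with H2-Aa, was at 25.7, 31.02, 29.6, 31.9 and 77.4 CPM in PF replicates 1 to 5 and at 26.6, 50.8 and 75.1 CPM (lowest, median and highest) in AF. H2-Eb1, the beta chain of I-E, was at 23.9, 33.8, 38.3, 40.5 and 108 CPM in PF and at 33.1, 66.3 and 94.97 CPM in AF. As for H2-Aa, PF replicate 5 held the highest value of all 12 livers for both genes, and AF replicate 6 the lowest of the AF group. The log2 fold changes were 0.42 for H2-Ab1 (SE 0.31, interval -0.24 to 1.08, edgeR adjusted p = 0.284) and 0.52 for H2-Eb1 (SE 0.35, interval -0.25 to 1.28, edgeR adjusted p = 0.257). H2-Ea-ps, the gene of the alpha chain that H2-Eb1 would need, is known to be defective in C57BL6 mice. It had 0 counts in all 12 livers. A count of 0 in 1 library taken alone allows an expected count of up to 3, and 0 in all 12 allows less per library.

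The invariant chain Cd74 followed the same pattern at a higher level. It was at 92.9, 130, 119, 136 and 267 CPM in PF replicates 1 to 5 and at 121 (lowest), 211 (median) and 290 (highest) CPM in AF. Only AF replicates 2 and 3 exceeded PF replicate 5. The log2 fold change was 0.49 (SE 0.28, interval -0.11 to 1.10, edgeR adjusted p = 0.174), and with plain library totals it was 0.88 and passed the threshold (edgeR adjusted p = 0.0315).

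**Figure D1:**
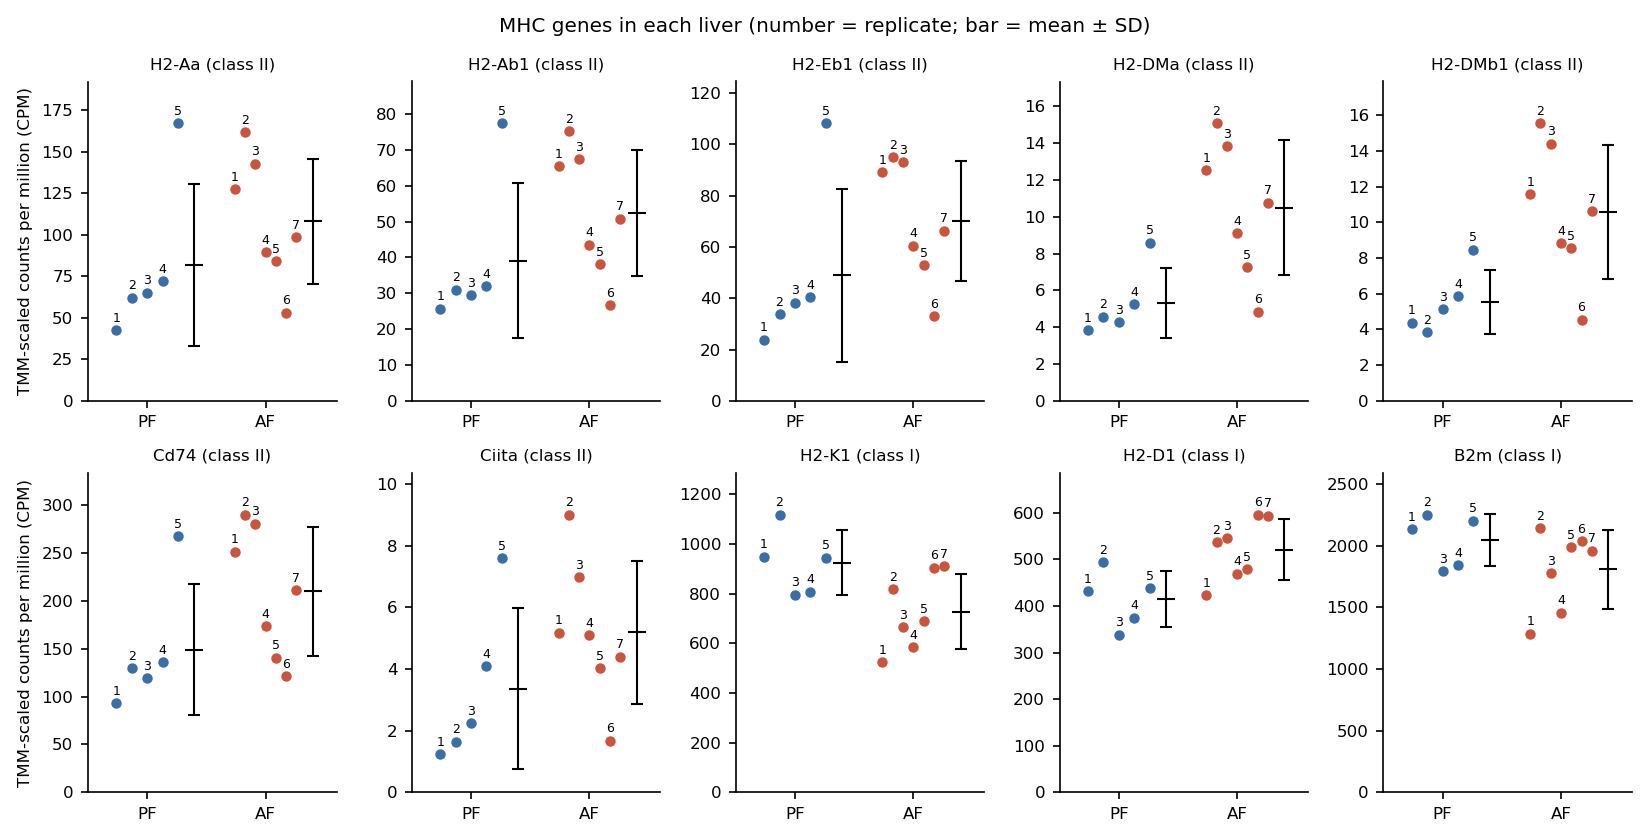
Each panel plots 1 gene in TMM-scaled CPM (vertical axis, from 0) for the 5 PF livers (blue) and 7 AF livers (red), with the replicate number above each point and the mean ± SD as a bar. PF replicate 5 stands above the other PF livers for the 7 class II genes, and AF replicate 6 is the lowest AF liver for the same 7 genes, while in the class I panels these livers do not stand apart.

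Both chains of the peptide exchange factor H2-DM were called higher in AF livers. Whether their change differed from that of the other class II genes was not tested, and the intervals of H2-Aa and Ciita include it. H2-DMa was at 3.84, 4.58, 4.29, 5.27 and 8.60 CPM in PF replicates 1 to 5 and at 4.84 (lowest), 10.8 (median) and 15.1 (highest) CPM in AF. All AF livers were above the PF median, and 5 of 7 were above every PF liver. The log2 fold change was 0.98, or 1.97-fold (SE 0.28, interval 0.37 to 1.59, edgeR adjusted p = 0.0149).

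Its partner H2-DMb1 was at 4.38, 3.84, 5.13, 5.86 and 8.46 CPM in PF and at 4.54, 10.6 and 15.5 CPM (lowest, median and highest) in AF. Here 6 of 7 AF livers were above every PF liver, the exception being AF replicate 6. The log2 fold change was 0.93, or 1.91-fold (SE 0.28, interval 0.33 to 1.54, edgeR adjusted p = 0.0181). Without PF replicate 2 the call of H2-DMb1 was narrowly lost (0.82, edgeR adjusted p = 0.0503), while H2-DMa kept its call with each library left out.

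Ciita, the coactivator, had few counts and the widest spread of the 10 genes. It was at 1.23, 1.65, 2.25, 4.09 and 7.60 CPM in PF replicates 1 to 5 and at 1.67 (lowest), 5.10 (median) and 9.005 (highest) CPM in AF. The highest PF value was 6.18 times the lowest, and 6 of 7 AF livers were above the PF median. The log2 fold change of 0.62 (SE 0.45, interval -0.35 to 1.599) did not pass the threshold (edgeR adjusted p = 0.285).

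In all, 2 of the 10 genes were higher in AF and 0 were lower by edgeR's quasi-likelihood test, against 22% of all tested genes called higher and 17.8% called lower (39.8% in either direction). A share of 2 in 10 is close to that background. DESeq2 called 3 members higher and 0 lower, against 18.7% and 15.9% of the genes to which it gave an adjusted p. At an unadjusted p under 0.05 edgeR gave 3 members higher and 0 lower, against 27.3% and 22.3% of all genes. The PF and AF ranges overlapped for all 10 genes, whereas 17.7% of all tested genes had groups that did not overlap. With library totals 4 members were called higher, against 45.6% of all genes called higher and 6.62% called lower under that scaling. Of all genes called, 55.3% were higher in AF under TMM and 87.3% with library totals.

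**Figure D2:**
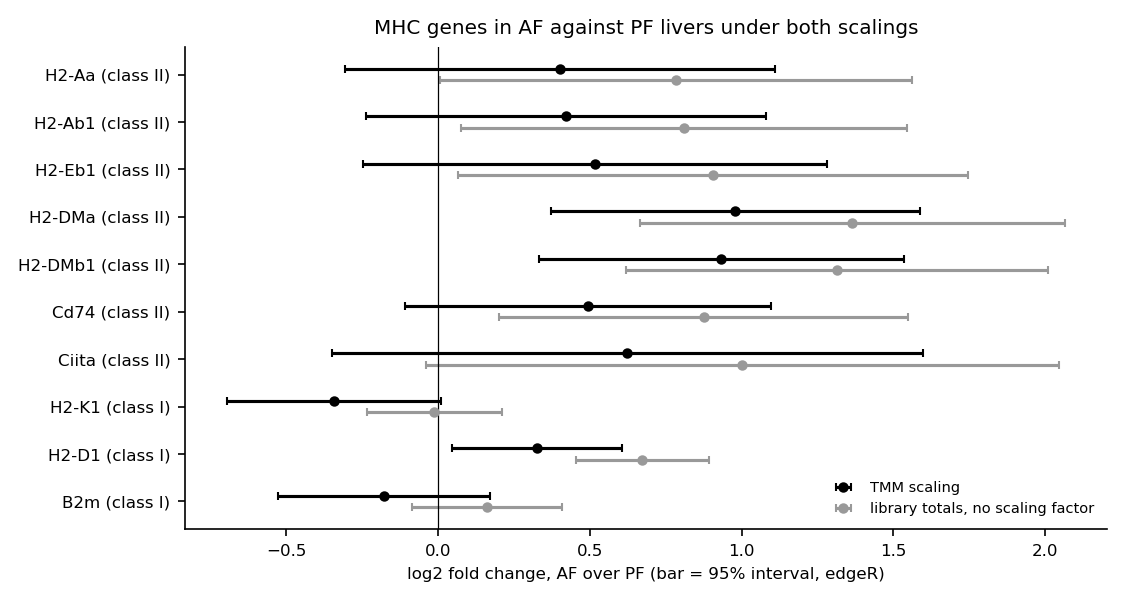
The plot gives the log2 fold change of AF over PF (horizontal axis) for each gene with its 95% interval from edgeR, in black under TMM scaling and in grey under plain library totals. The intervals of H2-DMa, H2-DMb1 and H2-D1 lie above 0 under both scalings, and the other 7 genes have an interval that includes 0 under TMM.

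PF replicate 5 decided most of the class II calls. In the fit without it, all 7 class II genes passed the threshold and none of the class I genes did, against 18.8% of all genes called higher in that fit. This fit is 1 of 12 that left out a library and is singled out after its values were seen. PF replicate 5 was the highest PF liver for all 7 genes, so leaving it out raises their fold changes by construction. The 7 genes also had similar profiles, so their calls are not 7 separate results. H2-Aa then had a log2 fold change of 0.83 (edgeR adjusted p = 0.0314), H2-Ab1 of 0.82 (edgeR adjusted p = 0.0228), H2-Eb1 of 1.03 (edgeR adjusted p = 0.0127), and Cd74 of 0.81 (edgeR adjusted p = 0.0240). H2-DMa and H2-DMb1 rose to 1.22 and 1.13, and Ciita to 1.16 at the edge of the threshold (edgeR adjusted p = 0.04997). The label and the depth of this library do not set it apart from the PF group, so it was kept.

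The excess in PF replicate 5 was not equal among the class II genes. Relative to the next highest PF liver it was 2.68 times for H2-Eb1, 2.42 times for H2-Ab1, 2.32 times for H2-Aa, 1.97 times for Cd74 and 1.86 times for Ciita. It was smaller for the H2-DM genes, 1.63 times for H2-DMa and 1.44 times for H2-DMb1. The within-liver ratio of H2-DMa to H2-Aa, a description chosen after the values were seen, averaged -3.84 ± 0.30 in PF and -3.37 ± 0.11 in AF on the log2 scale, lowest in PF replicate 5 at -4.28, and 6 of 7 AF livers were above every PF liver. The ratio of Cd74 to H2-Aa averaged 0.93 ± 0.17 in PF and 0.97 ± 0.15 in AF, a difference of 0.04.

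The class II genes had similar profiles over the 12 livers, which the choice by name did not use. For the distance between profiles, each gene's log2 CPM was centred on its own mean, and the root mean square difference from H2-Aa was taken over the 12 livers. H2-Eb1 and H2-Ab1 were both at 0.12 from H2-Aa and Cd74 at 0.15, followed by H2-DMa at 0.30, H2-DMb1 at 0.31 and Ciita at 0.35. The class I genes were farther from it, at 0.62 for H2-D1, 0.70 for B2m and 0.78 for H2-K1, with a median over all tested genes of 0.70. Outside the 10 genes, the profiles nearest to H2-Aa were those of Thy1 (0.22), Prdm1 (0.28), Kcnip3 (0.29), Hoxb3 (0.30) and 9930111J21Rik2 (0.33).

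**Figure D3:**
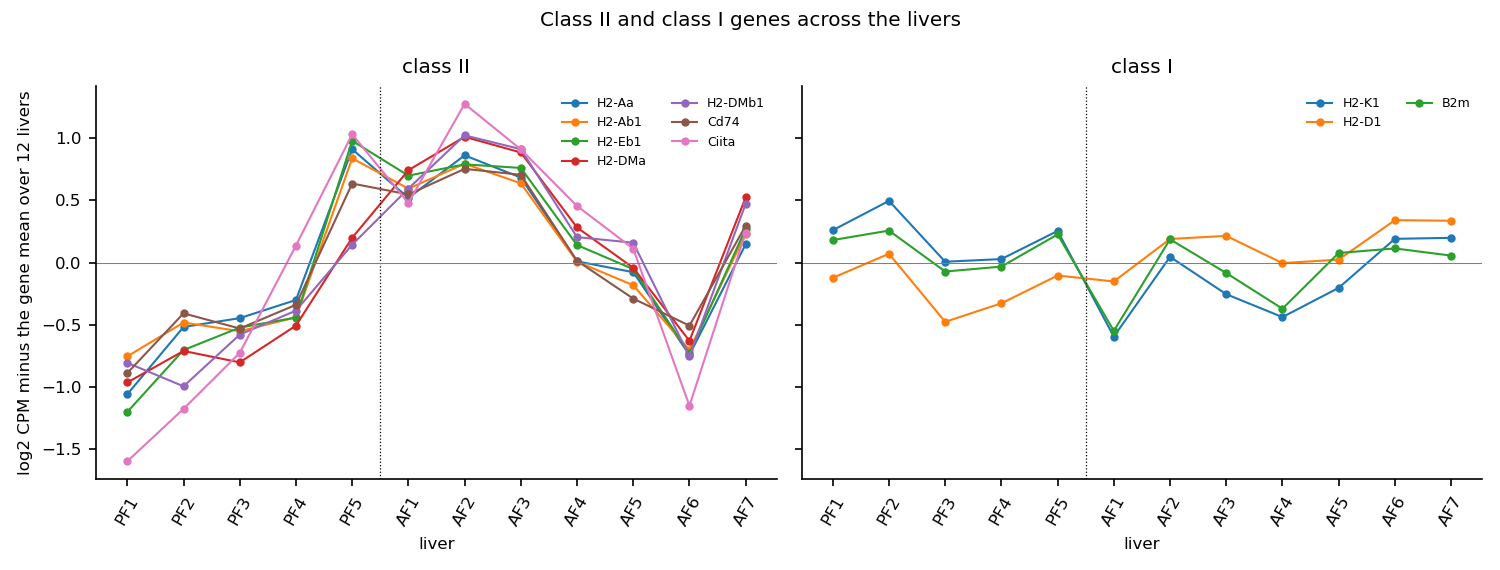
The plot shows log2 CPM minus the gene's mean over the 12 livers (vertical axis) for each liver (horizontal axis), with 7 class II genes on the left and 3 class I genes on the right. Lines join the values of 1 gene and imply no order among replicates, and the dotted line parts PF from AF. The class II lines rise and fall together, with high values in PF replicate 5 and AF replicates 1 to 3 and low values in AF replicate 6.

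Some leukocyte marker lists had their extremes in the same livers as class II, and others did not. Counts of markers called stand beside the 22% of all tested genes called higher and the 17.8% called lower. The summed level of 8 dendritic cell markers was 8.37 to 21.4 CPM in PF, highest in replicate 5, and 12.7 to 69.0 CPM in AF, lowest in replicate 6 and highest in replicate 1. Of the 8, Itgax alone was called higher (log2 fold change 2.92, SE 0.68, edgeR adjusted p = 0.00511) and 0 were lower. It made up 56.5 CPM of the sum in AF replicate 1. Without Itgax, a split chosen after the values were seen, the sums were 6.99 to 15.2 CPM in PF, highest in replicate 5, and 8.86 to 15.6 CPM in AF, lowest in replicate 6 and highest in replicate 2. Under TMM the log2 fold changes of Cd209a (-0.14) and Clec10a (-0.43) were negative and not called, and small negative values can turn with library totals. The 4 general leukocyte markers (Ptprc, Cd52, Coro1a and Laptm5) summed to 71.9 to 132 CPM in PF, again highest in replicate 5, and to 118 to 297 CPM in AF, again lowest in replicate 6, and 2 of the 4 were called higher and 0 lower. Of the 7 B cell markers 4 could be tested and none was called by edgeR (2 lower at an unadjusted p under 0.05, and 1 lower by DESeq2), with sums of 2.90 to 7.83 CPM in PF, highest in replicate 5, and 1.48 to 4.496 CPM in AF, where replicate 1 was lowest and replicate 6 was at 2.20 CPM. The 6 T and NK cell markers, none of them called by edgeR, by DESeq2 or at an unadjusted p under 0.05, summed to 4.67 to 8.55 CPM in PF and 3.13 to 6.02 CPM in AF, with PF replicate 5 and AF replicate 6 at the PF maximum and the AF minimum. The 4 neutrophil markers, none of them called by edgeR or DESeq2 and 2 of them lower at an unadjusted p under 0.05, summed to 42.7 to 707 CPM in PF, highest in replicate 1 with replicate 5 at 174 CPM, and to 27.0 to 141 CPM in AF, lowest in replicate 3.

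Further lists covered macrophages and sinusoidal endothelium, which can also carry class II, and bile duct cells. None of these markers was called lower. Of 6 Kupffer cell markers 4 were called higher, with sums of 603 to 811 CPM in PF (highest in replicate 5) and 794 to 2431 CPM in AF, where replicate 1 was lowest, replicate 3 highest and replicate 6 at 1155 CPM. Of 8 markers of recruited macrophages 4 were called higher, with sums of 74.9 to 305 CPM in PF (highest in replicate 5) and 160 (replicate 6) to 1614 CPM (replicate 1) in AF. Of 5 sinusoidal endothelial markers 1 was called higher, which is near the 22% of all tested genes called higher, and their sums overlapped at 143 to 297 CPM in PF and 171 to 289 CPM in AF. Of 4 bile duct markers all were called higher (median log2 fold change 2.49), with sums of 3.16 to 4.96 CPM in PF and 4.95 (replicate 6) to 41.5 CPM (replicate 1) in AF. No marker of these lists was at 0 in a whole group. The part of any of these cell types in the class II values was not tested.

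The class I genes were compared with the same test. H2-K1 was at 949, 1118, 797, 809 and 946 CPM in PF replicates 1 to 5 and at 525 (lowest), 689 (median) and 910 (highest) CPM in AF. No AF liver exceeded the PF median, and 4 of 7 were below every PF liver. The log2 fold change of -0.34 (SE 0.16, interval -0.70 to 0.01) did not pass the threshold (edgeR adjusted p = 0.111), and with library totals it was -0.01. It did pass in limma-voom with sample quality weights (-0.37, adjusted p = 0.0307).

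H2-D1, the other classical heavy chain of this strain, had the opposite sign. It was at 432, 494, 338, 375 and 438 CPM in PF and at 424, 537 and 596 CPM (lowest, median and highest) in AF, with 4 of 7 AF livers above every PF liver. The log2 fold change was 0.33 (SE 0.13, interval 0.05 to 0.60, edgeR adjusted p = 0.0611). This call was close to the threshold and turned with the method, since DESeq2 gave an adjusted p of 0.0453 and library totals gave 0.67 (edgeR adjusted p = 3.68e-04).

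B2m was at 2134, 2250, 1791, 1841 and 2202 CPM in PF and at 1287, 1957 and 2143 CPM in AF, where 3 of 7 livers were below every PF liver. Its log2 fold change was -0.18 (SE 0.16, interval -0.53 to 0.17, edgeR adjusted p = 0.396), and the sign turned to 0.16 with library totals. Among PF livers the highest value was 1.26 times the lowest, the narrowest range of the 10 genes. The profiles nearest to that of H2-K1 were those of Mcee (0.10), Fggy (0.10), Vkorc1 (0.11), Tgds (0.11) and Serpinc1 (0.11), with B2m at 0.14 and H2-D1 at 0.36, against a median over all tested genes of 0.44. Serpinc1 encodes antithrombin, a plasma protein made by hepatocytes. The 5 hepatocyte markers summed to 86560 to 128200 CPM in PF and 44950 to 93830 CPM in AF, with 2 called lower and 0 higher by edgeR, against 17.8% and 22% of all tested genes. At an unadjusted p under 0.05 edgeR gave 4 lower and 0 higher, and DESeq2 called 5 lower and 0 higher, against 22.3% and 15.9% of all genes lower by these rules. Their part in the H2-K1 values was not tested.

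Class I was then set against class II within each liver, where scaling cancels. The log2 ratio of H2-K1 to H2-Aa was 4.47, 4.17, 3.61, 3.48 and 2.50 in PF replicates 1 to 5 and 2.04 (lowest), 2.71 (median) and 4.09 (highest) in AF. The means were 3.65 ± 0.76 and 2.81 ± 0.71, and 3 of 7 AF livers were below every PF liver. The difference of -0.84 did not pass an exact two-sided permutation test over all splits of the livers into 5 and 7 (p = 0.0821, adjusted over the 2 ratios 0.0821), for which the smallest possible p is 0.00126.

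The light chain against the invariant chain gave a similar picture. The log2 ratio of B2m to Cd74 was 4.52, 4.12, 3.91, 3.76 and 3.04 in PF and 2.36, 3.07 and 4.07 (lowest, median and highest) in AF, with means of 3.87 ± 0.54 and 3.16 ± 0.61. The difference of -0.72 had an exact permutation p of 0.0732 (adjusted 0.0821). With the other classical heavy chain the difference was much smaller, since the log2 ratio of H2-D1 to H2-Aa averaged 2.49 ± 0.74 in PF and 2.34 ± 0.62 in AF. That difference of -0.15, a description chosen after the values were seen, had 0 of 7 AF livers below every PF liver and 1 above. PF replicate 5 had the lowest ratio among PF livers and AF replicate 6 the highest among AF livers in both comparisons. Without PF replicate 5 the exact permutation p was 0.0242 for H2-K1 to H2-Aa (difference -1.13) and 0.0303 for B2m to Cd74 (difference -0.92), and without AF replicate 6 it was 0.0217 (-1.06) and 0.0281 (-0.87). For B2m to Cd74 it was also under the threshold without AF replicate 5 (exact permutation p = 0.0433, difference -0.83). PF replicate 5 and AF replicate 6 lie against the difference, so leaving either out enlarges it by construction. Of 15 alternative settings, the exact permutation p stayed above the threshold in 13 for H2-K1 to H2-Aa and in 12 for B2m to Cd74, reaching 0.188 for each. These settings include the replicate number as a block, which could not pass.

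The ratio between the 2 classical heavy chains did not overlap between the groups. The ratio of H2-D1 to H2-K1 counts was 0.456, 0.442, 0.425, 0.464 and 0.463 in PF replicates 1 to 5, and 0.653 (lowest), 0.695 (median) and 0.821 (highest) in AF. All 7 AF livers were above all 5 PF livers, and on the log2 scale the means were -1.15 ± 0.05 and -0.47 ± 0.16. The pair was picked after its values were seen and is given without a test. As background, 11.5% of all tested genes had a ratio to H2-K1 that was higher in every AF liver than in any PF liver. The ratio of H2-D1 to B2m was likewise higher in 7 of 7 AF livers (log2 -2.30 ± 0.08 in PF and -1.78 ± 0.18 in AF), as was that of 7.58% of all genes to B2m. H2-D1 and H2-K1 share sequence with each other and with H2-Q genes, and how the counting split such reads is not given in the sources used here.

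**Figure D4:**
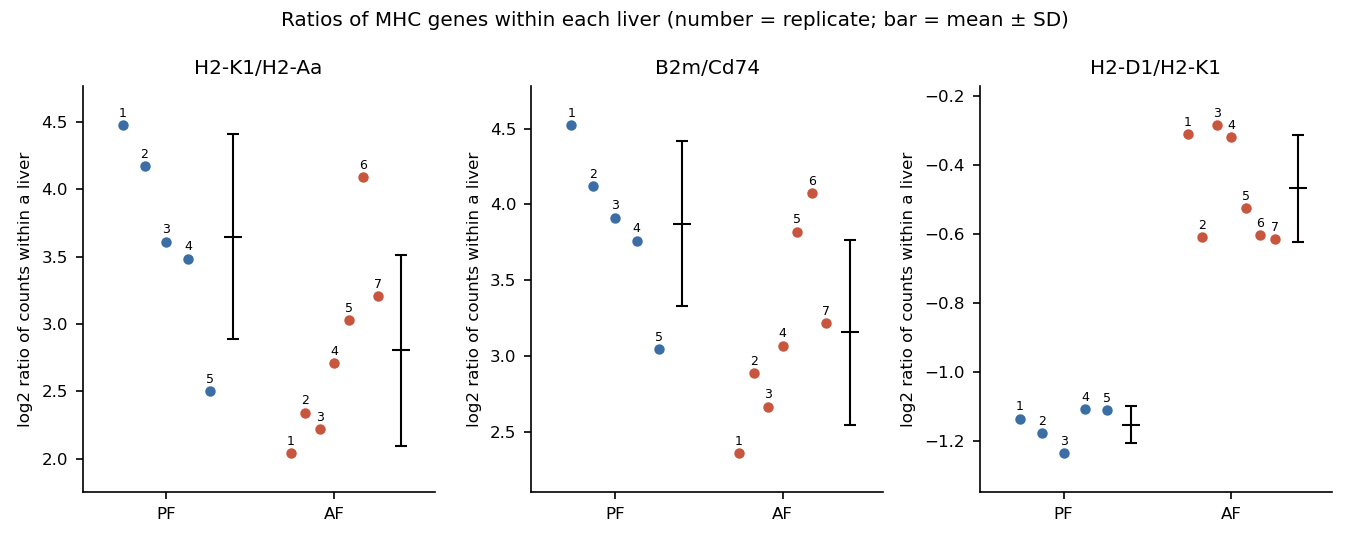
The panels plot log2 ratios of counts within each liver (vertical axis, not starting at 0) for H2-K1 to H2-Aa, B2m to Cd74 and H2-D1 to H2-K1, in PF (blue) and AF (red), with replicate numbers and the mean ± SD as a bar. The first 2 ratios overlap between groups, with PF replicate 5 low and AF replicate 6 high, while the 7 AF livers of the third panel all lie above the 5 PF livers.

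Other genes of the pathway were grouped by role. Among the other class II genes only H2-Ob and H2-DMb2 could be tested, and neither was called. Their log2 fold changes were -0.05 and -0.12 under TMM, and values this near 0 can turn with library totals. H2-Ob is a chain of H2-DO, the inhibitor of H2-DM known mainly from B cells. It was at 1.30 ± 0.772 CPM in PF and 1.25 ± 0.279 CPM in AF livers (SD, n = 5 and 7).

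The endosomal genes of class II processing were called higher in 7 of 9 cases and lower in 1, against 22% and 17.8% of all tested genes, with a median log2 fold change of 0.80 against 0.04 for all genes. Legumain (Lgmn), an endosomal protease, was at 94.0 to 129 CPM in PF and 193 to 400 CPM in AF, with a log2 fold change of 1.35 (SE 0.17, edgeR adjusted p = 1.28e-04). Cathepsin D (Ctsd) was at 164 to 214 CPM in PF and 322 to 612 CPM in AF (log2 fold change 1.31, SE 0.18, edgeR adjusted p = 2.14e-04). Cathepsin S (Ctss), which cleaves the invariant chain in dendritic cells and B cells, was at 87.5 to 155 CPM in PF and 140 to 414 CPM in AF (log2 fold change 1.29, SE 0.25, edgeR adjusted p = 0.00192).

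Cathepsin L (Ctsl) was at 818 to 1083 CPM in PF and 1226 to 2340 CPM in AF (log2 fold change 0.89, SE 0.18, edgeR adjusted p = 0.00242). For Lgmn, Ctsd and Ctsl every AF liver was above every PF liver, which held for 8.2% of all tested genes. These proteases also serve general protein breakdown in lysosomes and are not particular to antigen presentation. The gene of this list that fell was March8 (log2 fold change -0.68, SE 0.13), which encodes a ubiquitin ligase of membrane proteins and was named after its value was seen.

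Of 14 genes of class I peptide supply and loading, 0 were called higher and 2 lower by edgeR. The median log2 fold change was -0.20 under TMM, and a value this near 0 can turn with library totals. Of all tested genes 22% were called higher and 17.8% lower. DESeq2 called 0 higher and 3 lower, against 18.7% and 15.9% of genes. At an unadjusted p under 0.05 edgeR gave 0 higher and 5 lower, against 27.3% and 22.3% of all genes. With library totals 3 were called higher and 1 lower, against 45.6% and 6.62% of all genes. Erap1, the aminopeptidase that trims peptides in the endoplasmic reticulum, was at 148 to 182 CPM in PF and 81.3 to 131 CPM in AF and fell by 0.69 on the log2 scale (SE 0.12, edgeR adjusted p = 0.00121). Every AF liver was below every PF liver, as for 9.49% of all tested genes. Tapbpl, a tapasin relative, had a log2 fold change of -0.25 (SE 0.08, edgeR adjusted p = 0.0238), which turned to 0.11 with library totals. Its call was also lost with upper-quartile factors (adjusted p = 0.0654), with a filter of 1 count in any library (adjusted p = 0.0791), without PF replicate 3 (adjusted p = 0.0602) and without PF replicate 5 (adjusted p = 0.0572).

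The peptide transporter Tap1 (log2 fold change 0.33, SE 0.20, edgeR adjusted p = 0.214) and the immunoproteasome subunit Psmb8 (-0.19, SE 0.17, edgeR adjusted p = 0.385) did not pass the threshold. The sign of Psmb8 turned to 0.17 with library totals, and Tap1 was called higher under that scaling (0.70, edgeR adjusted p = 0.0208). Without AF replicate 2 Tap1 was at 0.16 under TMM.

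Of 18 other class I heavy chains and class I-like genes that could be tested, 3 were called higher and 1 lower, with a median log2 fold change of 0.17. The share called higher was near the 22% of all tested genes, of which 17.8% were called lower. H2-Q10, a secreted class I molecule made by hepatocytes, was at 1046 to 1841 CPM in PF and 420 to 1203 CPM in AF and fell by 0.77 on the log2 scale (SE 0.24, edgeR adjusted p = 0.0222). This call was lost with library totals (-0.44, edgeR adjusted p = 0.0755), without PF replicate 1 (-0.62, adjusted p = 0.0655) and without PF replicate 2 (-0.73, adjusted p = 0.0514).

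Procr, the endothelial protein C receptor, whose fold is class I-like, was at 1.42 to 3.8 CPM in PF and 2.65 to 8.504 CPM in AF (log2 fold change 1.22, SE 0.36, edgeR adjusted p = 0.0168). H2-M3, which presents formylated peptides, had a log2 fold change of 0.61 (SE 0.18, edgeR adjusted p = 0.0158). Hfe, the class I-like regulator of hepcidin, had 0.34 (SE 0.09, edgeR adjusted p = 0.00981).

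Among the regulators, 5 of 17 tested genes were called higher and 3 lower, with a median of 0.03, shares near the 22% and 17.8% of all tested genes. Both chains of the interferon-gamma receptor rose. Ifngr1 was at 26.2 to 33.4 CPM in PF and 35.0 to 66.5 CPM in AF (log2 fold change 0.77, SE 0.15, edgeR adjusted p = 0.0015). Ifngr2 was at 18.9 to 27.8 CPM in PF and 30.5 to 45.3 CPM in AF (0.79, SE 0.12, edgeR adjusted p = 3.45e-04). For both genes all AF livers were above all PF livers, which held for 8.2% of all tested genes. The message of the ligand, Ifng, had too few counts to be tested, at 0 to 0.181 CPM in PF and 0 to 0.0855 CPM in AF.

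Irf8, a transcription factor of dendritic cells, B cells and macrophages, rose by 0.76 (SE 0.19, edgeR adjusted p = 0.00782). Nfyb, a subunit of the Y box factor NF-Y, fell by 0.78 on the log2 scale (SE 0.16, edgeR adjusted p = 0.00202), while its partner Nfya, named after its value was seen, rose by 0.67 (SE 0.15). Rfx5, a subunit of the X box complex, had a log2 fold change of 0.44 (SE 0.14, edgeR adjusted p = 0.0266), and Nlrc5, the class I counterpart of Ciita, had -0.37 (SE 0.14, edgeR adjusted p = 0.0480). The call of Rfx5 was lost in 5 and that of Nlrc5 in 14 of 21 alternative settings, and Nlrc5 was at -0.02 with library totals.

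Of 9 tested genes of costimulation and T cell recognition, 4 were called higher and 1 lower, against 22% and 17.8% of all tested genes, with a median of 0.50. Cd86, the costimulatory ligand of antigen-presenting cells, was at 8.05 to 13.4 CPM in PF and 15.1 to 31.5 CPM in AF (log2 fold change 0.93, SE 0.19, edgeR adjusted p = 0.00258). Icosl (0.89, SE 0.27, edgeR adjusted p = 0.0198) and Cd274, which encodes PD-L1 (1.00, SE 0.35, edgeR adjusted p = 0.0352), were also called higher. Icosl lost its call without PF replicate 2 (0.82, adjusted p = 0.0524) or 4 (0.81, adjusted p = 0.0528), and Cd274 lost it in 6 of the 12 fits that left out 1 library (0.78 to 1.04, adjusted p = 0.0557 to 0.0869).

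Cd4, the coreceptor that binds class II molecules, moved in the other direction. It was at 3.07 to 5.20 CPM in PF and 0.594 to 1.21 CPM in AF and fell by 1.98 on the log2 scale (SE 0.22, edgeR adjusted p = 3.97e-05). Every AF liver was below every PF liver for Cd4, as for 9.49% of all tested genes. The T cell gene Cd3e, at 0.769 ± 0.244 CPM in PF and 0.569 ± 0.175 CPM in AF, was not called (log2 fold change -0.44, SE 0.28), and Cd8a was not called either (-0.33, SE 0.46). Of the 6 lists, the calls and medians given here describe these libraries, and no list was tested as a set.

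**Figure D5:**
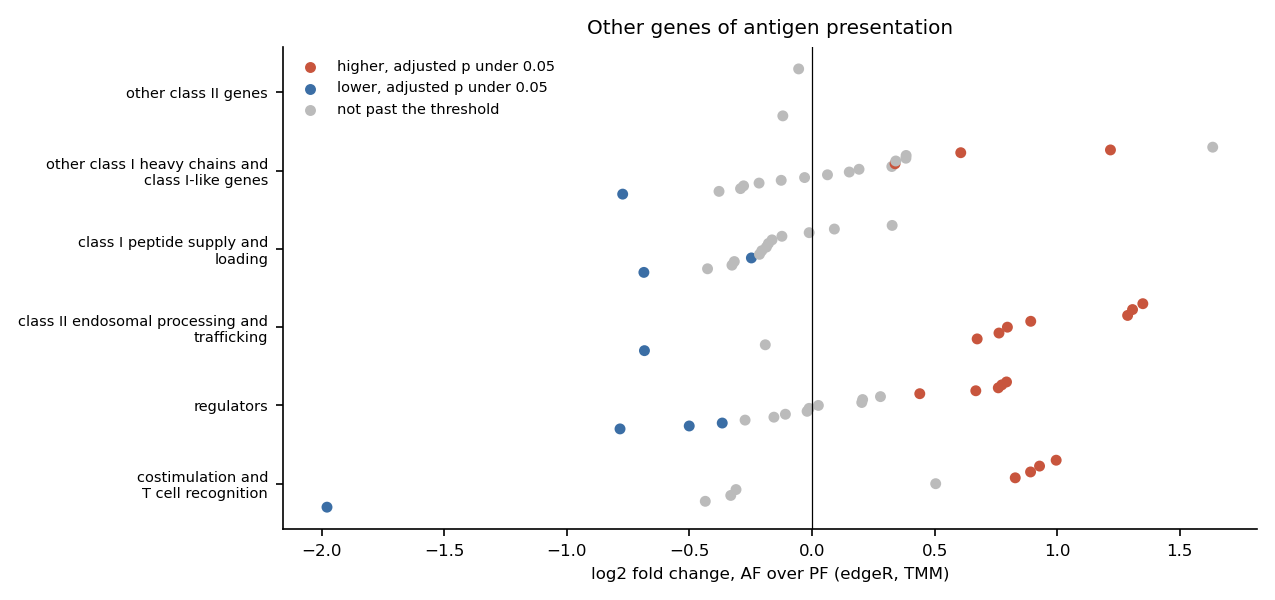
Each point is 1 tested gene of the 6 lists (rows), placed by its log2 fold change of AF over PF under TMM scaling (horizontal axis), in red or blue where the edgeR adjusted p is under 0.05 and in grey otherwise. The row of class II endosomal processing holds 7 red points and 1 blue point, and the row of class I peptide supply and loading holds 2 blue points and no red one.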

How the data were processed

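The authors extracted RNA from whole liver with TRIzol, enriched mRNA with oligo(dT) and prepared libraries with a stranded kit. Per the labels, the tools were FastQC 0.10.1, TopHat2 2.0.13 and HTSeq 0.10.0 with GRCm38, and the deposited values are raw counts per Ensembl gene for 12 libraries. The gene annotation and the strand setting of the counting are not given in the sources used here. The values are not normalized, and reads carry no molecular identifiers, so floors cover counting error only.

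Columns were matched to livers by the group and replicate number in their names, and 0 columns were left unused. GENCODE M21 named 54165 of 54232 genes. Counts were filtered with filterByExpr by group (14168 genes left), scaled with TMM and compared between AF and PF by the quasi-likelihood test of edgeR, with no covariate (R 4.3.3, edgeR 4.0.16, limma 3.58.1, DESeq2 1.42.0), with Benjamini-Hochberg adjustment over all genes tested and a threshold of 0.05. This test took the place of the Cuffdiff2 comparison in the study's methods, which needs reads. RPKM is CPM per kilobase of the union of GENCODE exons. Standard errors were derived from the F statistic and 95% intervals from the t distribution with edgeR's degrees of freedom. Ratios within a liver used log2 of counts plus 0.5. Promoter windows came from RefSeq (GRCm38.p6), with windows for 7 of the 10 members used here.

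The members, lists and tests were chosen with earlier results of these data known. Named were all members, from each list the 4 largest changes past the threshold, 7 genes whatever their values (Nlrc5, Tap1, Psmb8, H2-Q10, H2-Ea-ps, Ctss and Rfx5), and the 5 genes nearest in profile to H2-Aa and to H2-K1. Further list genes (H2-Ob, H2-DMb2, Ifng, Cd3e, Cd8a, March8 and Nfya) and marker genes were named after their values were seen. Alternatives were DESeq2, limma-voom, alone or with sample quality weights, RLE and upper-quartile factors, library totals, 2 other filters, the replicate number as a block, 2 other added counts for the ratios, and each library left out. On simulated counts with 193 changed genes among 13993, the test recovered 65 of 97 with a log2 change of 1 and 92 of 96 with a log2 change of 2, with 7 false calls. Libraries of a group differed by at least 21.2 times the counting noise, so none was a library of its own group deposited again. Pairs across the groups were not examined in this way.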

Additional observations from a re-analysis of the deposited data

Results flagged for a closer look

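Of 68 groups of livers examined for a single liver far from the others, by the gap to the nearest liver as a share of the group's range, 8 stood out, where chance gives about 1 in 20 (3.4) if groups are independent. They are not, since the class II genes have similar profiles and 1 liver is counted for several of them. In 5 of the 8 the liver was PF replicate 5, with H2-Aa at 167 CPM (next highest PF liver 72.2), H2-Ab1 at 77.4 CPM (next 31.9), H2-Eb1 at 108 CPM (next 40.5), Cd74 at 267 CPM (next 136) and Procr at 3.8 CPM (next 1.87). The other 3 were Nlrc5 in AF replicate 2 at 28.2 CPM (next 18.4), Ifngr2 in PF replicate 1 at 27.8 CPM (next 21.2) and Cd86 in AF replicate 3 at 31.5 CPM (next 22.1).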

How the results depend on the processing

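The number of genes called was 5635, between 4642 and 6497 with 1 library left out and between 5198 and 7513 in the other settings. The 2 members called higher became 4 with library totals, which added Cd74 and H2-D1, and ranged from 2 to 7 with 1 library left out (7 without PF replicate 5). The 0 members called lower became 1, H2-K1, with sample quality weights (-0.37, adjusted p = 0.0307) and with the replicate number as a block (-0.50, adjusted p = 0.0208), and stayed at 0 with any 1 library left out. H2-D1 also passed under DESeq2, quality weights, upper-quartile factors, without PF replicate 2 and without AF replicate 1 (adjusted p = 0.0200 to 0.0465). With library totals the signs of B2m (0.16), Psmb8 (0.17) and Tapbpl (0.11) turned, which follows from the shift of all genes. With 1 library left out the difference in H2-K1 to H2-Aa ranged from -1.13 to -0.64 and in B2m to Cd74 from -0.92 to -0.55. The cause of these changes was otherwise not tested.

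Of the counts of list calls, 21 moved by over 1.5 times, 7 with 1 library left out, 6 with library totals, 4 with quality weights, 2 with the block and 1 each with upper-quartile factors and a filter of 1 count. Genes of class I peptide supply called lower went from 2 to 5 with quality weights and with the block. Of all 14168 genes tested, 3541 were called lower with quality weights and 2940 with the block, against 2519 in the main fit. With library totals other class I genes had 9 higher and 0 lower and regulators 8 higher and 1 lower, against 45.6% and 6.62% of all genes. These list alternatives were chosen after seeing the data. Same-numbered PF and AF livers had correlations of deviations of -0.07 to 0.12 over genes, so the numbers were not taken as pairs. The block called 6335 genes (3395 higher and 2940 lower), gave ratio differences of -1.18 (exact p = 0.125) and -0.91 (exact p = 0.188) over the 5 shared numbers, where the smallest possible p is 0.0625 and neither could pass, and lost the calls of Hfe (0.30, adjusted p = 0.0558) and Nlrc5 (-0.37, adjusted p = 0.0566). Only PF replicate 3 correlated best with its own number. Ciita, at 1 to 9 CPM, had the fewest counts of the members, and intervals of over 1 log2 unit for the class II genes limit what 5 and 7 livers can show.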
